A study of Mus musculus with 19 samples.

Results

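DARPP-32 and the phosphatase signalling around it were followed through 10 genes: Ppp1r1b, Ppp1r1a, Arpp21, Arpp19, Ppp1ca, Ppp1cb, Ppp1cc, Ptpn5, Cdk5 and Rasd2. They were chosen by symbol, without use of their values, and each symbol matched 1 Ensembl gene among the 39017 genes of the deposited tables. The data are translating ribosome affinity purification (TRAP) libraries, in which ribosomes carrying the tagged protein EGFP-L10a are pulled down from 1 kind of cell with the mRNA bound to them. The tissue was the striatum of female mice on a background written as C56BL/6J in the labels. There were 4 libraries of each of 4 groups. Old D1 and young D1 libraries came from mice of the strain Drd1::EGFP-L10a aged 2 years and 42 days, and old D2 and young D2 libraries came from mice of the strain Drd2::EGFP-L10a aged 2 years and 42 days. D1 and D2 are the 2 kinds of spiny projection neuron, named after the dopamine receptor each carries. All 16 libraries carry the tag, and the receptor gene that drives it decides which cells are sampled, so other striatal cells that use the same driver can enter the pulldown. Each group's 4 libraries are biological replicates per the design text, and the labels do not say whether animals were pooled. Another 3 samples, ribosome profiling of NIH-3T3 fibroblasts, are not analysed here.

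Spiny projection neurons turn dopamine signals into changes of protein phosphorylation. When cyclic AMP rises, protein kinase A phosphorylates DARPP-32 and turns it into an inhibitor of protein phosphatase 1 (PP1), so that PP1 substrates stay phosphorylated for longer. Cdk5 phosphorylates DARPP-32 at another site and turns it into an inhibitor of protein kinase A instead. STEP is a tyrosine phosphatase of the striatum that removes phosphate from mitogen-activated kinases and glutamate receptor subunits, and protein kinase A holds it in check.

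The 10 genes cover the steps of this circuit. Ppp1r1b encodes DARPP-32 itself and Ppp1r1a its relative inhibitor-1. Arpp19 and Arpp21 encode cyclic AMP-regulated phosphoproteins, the first an inhibitor of protein phosphatase 2A and the second a calmodulin regulator in its short form. Ppp1ca, Ppp1cb and Ppp1cc encode the catalytic subunits of PP1. Ptpn5 encodes STEP, Cdk5 the kinase, and Rasd2 the small GTPase Rhes, which is enriched in striatum and dampens dopamine receptor signalling.

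The libraries held from 27484038 to 70903004 assigned fragments, and each of the 10 genes had at least 375 fragments in every library. Old D1 libraries differed from the remaining 12 in several ways. Between 10364 and 13694 genes had a fragment in old D1 libraries, against 12770 to 14992 genes elsewhere, and fragments averaged 151 to 164 bases in old D1, against 170 to 195 bases elsewhere. The most abundant gene, Gm42418, took 4.45 to 5.41% of the fragments in old D1 and 9.76 to 18.2% elsewhere. The receptor genes followed the labels. Drd1 averaged 418 ± 130 TPM in old D1, 284 ± 36.7 in young D1, 67.6 ± 16.7 in old D2 and 8.31 ± 2.54 in young D2, and Drd2 averaged 23.9 ± 21.8, 19.9 ± 15.2, 3529 ± 1550 and 3116 ± 443 TPM in the same order of groups (SD, n = 4 each). TPM is a level scaled for gene length and library size, and all levels below are on this scale.

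Markers of other cells also differed between groups, some with ranges that overlapped. The summed TPM of 7 astrocyte markers was 238 to 390 in old D1, against 53.1 to 121 in young D1, and 88.6 to 153 in old D2, against 25.2 to 64.7 in young D2. The 6 oligodendrocyte markers summed to 75.6 to 191 TPM in old D1, against 127 to 290 in young D1, and the 4 GABAergic interneuron markers to 30.5 to 546 TPM in old D1, against 62.1 to 140 in young D1. In D2 the oligodendrocyte markers summed to 247 to 353 TPM in old mice, against 158 to 267 in young mice. The GABAergic markers there summed to 11.7 to 91.9 TPM in old mice, against 5.15 to 53.1 in young mice. Old and young ranges overlapped for both sets in D1 and in D2. The 5 D1 markers, those of the cells sampled in D1, summed to 3641 to 6621 TPM in old D1, against 1860 to 2542 TPM in young D1. In the D2 pulldowns the D1 markers summed to 404 to 646 TPM in old D2 and to 128 to 149 TPM in young D2. The 4 matched D2 markers summed to 105 to 549 TPM in old D1, against 106 to 222 TPM in young D1, and were never at 0. The 6 microglial markers stayed at or under 18.2 TPM in sum, with C1qa at 0 in all 16 libraries, the 4 endothelial and mural markers at or under 4.81 TPM and the 2 matched cholinergic markers at or under 15.2 TPM. The 4 cortical glutamatergic markers summed to 0.09 to 139 TPM in old D1, against 1.32 to 17.5 TPM in young D1. The part of these other cells in the results below was not tested.

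A gene was called changed where the Benjamini-Hochberg adjusted p of edgeR's two-sided quasi-likelihood test, over 13926 genes, was under 0.05. Fold changes are log2, with the standard error (SE), and come from counts scaled by the TMM method. All 10 genes passed the filter on low counts and were tested in every comparison. In old D1 against young D1, 5 of the 10 were called, 1 higher and 4 lower, where 10.8% of all tested genes were called, 5.39% higher and 5.44% lower. In old D2 against young D2 none of the 10 was called by edgeR, where 0.079% of all tested genes were. An unadjusted edgeR p under 0.05 was found for 5 of the 10 and for 801 of all 13926 tested genes. DESeq2 also called 0 of the 10, where it called 102 of 13649 genes. The change with age differed between D1 and D2 for 2 of the 10, both lower in D1, where 1.77% of all tested genes were called. Between old D1 and old D2, 5 of the 10 were called, 1 higher and 4 lower, where 9.6% of all tested genes were called, 5.02% higher and 4.58% lower. Between young D1 and young D2 edgeR called none of the 10, where 0.409% of all tested genes were called. There, 2 of the 10 had an unadjusted edgeR p under 0.05, as had 837 of all 13926 tested genes. DESeq2 called 1 of the 10, where it called 187 of 13649 genes.

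Ppp1r1b, at chr11:98348404-98357796 on the forward strand of GRCm38 (ENSMUSG00000061718), was among the most abundant mRNAs of these neurons and fell with age in D1. Its level was 1714, 1810, 2213 and 1319 TPM in the old D1 libraries, against 4112, 3217, 3700 and 4035 TPM in the young D1 libraries. All 4 old D1 libraries lay below all 4 of young D1, as they did for 7.6% of all tested genes. The log2 change was -1.29 (SE 0.16, edgeR adjusted p = 0.000114), a level 2.44-fold lower. In D2 neurons it had 3515, 4163, 3551 and 3739 TPM in old mice, against 5098, 3883, 4334 and 4648 TPM in young mice. These ranges overlapped, and the log2 change of -0.29 (SE 0.16) did not pass (edgeR adjusted p = 0.992). The change with age was lower in D1 than in D2 by a log2 difference of -0.996 (SE 0.22, edgeR adjusted p = 0.0283). That call was lost, with an edgeR adjusted p of up to 0.0757, in 7 of 16 fits that left out 1 library each, those without young D1 replicates 1 and 4, young D2 replicates 2, 3 and 4, and old D2 replicates 2 and 3. Removing a trend with GC content and length, described below, ended both calls. In a pulldown, fewer cells that use the gene and less of its RNA per cell cannot be told apart. By mean TPM the gene ranked 42 among the genes listed above 0 in old D1, 11 in young D1, 11 in old D2 and 9 in young D2.

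Ppp1r1a (ENSMUSG00000022490, chr15:103530279-103538003, reverse strand), the inhibitor-1 gene, was read at a far lower level and was not called by edgeR in any comparison. It ranged from 58.5 to 73.0 TPM in old D1, against 55.2 to 146 TPM in young D1, with a log2 change of -0.59 (SE 0.35, edgeR adjusted p = 0.304). In D2 neurons it had 45.4, 51.7, 49.1 and 39.8 TPM in old mice, against 79.2, 96.8, 110 and 75.7 TPM in young mice. The old D2 libraries all lay below the young D2 libraries, as was the case for 4 of the 10 genes and 2.64% of all tested genes. The log2 change of -1.04 (SE 0.36) had an unadjusted p of 0.0084 and an edgeR adjusted p of 0.606. The young D1 libraries spread by a coefficient of variation of 40.7%, the highest of the 10 genes in any group. All 4 old D1 libraries lay above the 4 old D2 libraries, and the log2 difference of 0.67 (SE 0.35, edgeR adjusted p = 0.247) passed only with the GC and length trend removed, at 1.22 (edgeR adjusted p = 0.044).

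The mRNAs of the 2 cyclic AMP-regulated phosphoproteins were abundant in all 4 groups. Arpp21 (ENSMUSG00000032503, chr9:112065091-112235938, reverse strand) averaged 2925 ± 768 TPM in old D1, against 2867 ± 349 TPM in young D1, and 2493 ± 203 TPM in old D2, against 3311 ± 236 TPM in young D2 (SD, n = 4 each). Its log2 change with age was 0.10 (SE 0.18, edgeR adjusted p = 0.794) in D1 and -0.55 (SE 0.18, edgeR adjusted p = 0.571) in D2. The 4 old D2 libraries, at 2203 to 2635 TPM, lay below the 4 young D2 libraries, at 3098 to 3598 TPM. Arpp21 was the only one of the 10 genes whose call in D2 appeared under another setting, with limma's voom and library weights. Arpp19 (ENSMUSG00000007656, chr9:75037614-75060313, forward strand) averaged 1127 ± 288 TPM in old D1, against 1257 ± 89.6 TPM in young D1, and 1764 ± 241 TPM in old D2, against 1845 ± 134 TPM in young D2 (SD, n = 4 each). Its log2 change with age in D1 was 0.14 (SE 0.14, edgeR adjusted p = 0.553), of the opposite sign to the difference of the mean TPM, and removing the trend with GC content and length turned it to -0.48. In young mice it was lower in every D1 library, at 1201 to 1390 TPM, than in every D2 library, at 1745 to 2041 TPM. The log2 difference of -0.61 (SE 0.14) had an edgeR adjusted p of 0.0553, just over the threshold. DESeq2 called it, as did 2 other settings and the fits without old D1 replicate 3 and without old D1 replicate 4.

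**Figure D1:**
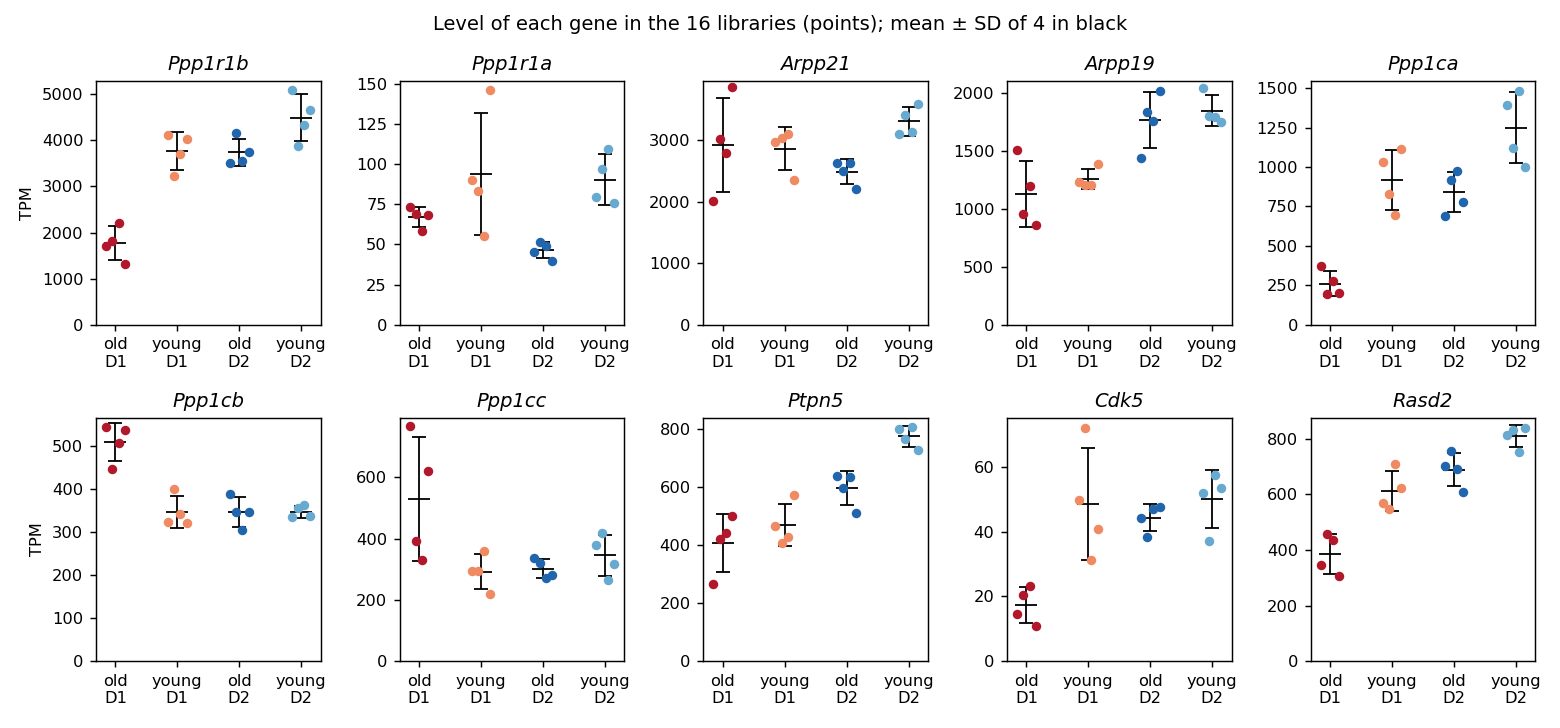
Level of each of the 10 genes in TPM (vertical axes, linear from 0) in the old D1, young D1, old D2 and young D2 libraries, with 1 point per library and the mean ± SD of 4 in black. The 4 old D1 points of Ppp1r1b, Ppp1ca, Cdk5 and Rasd2 lie below all other 12 points, and those of Ppp1cb lie above them.

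The PP1 catalytic subunit genes gave calls in opposite directions in old D1, Ppp1ca lower and Ppp1cb higher, although the direction of Ppp1cb turned when the GC and length trend was removed. Ppp1ca (ENSMUSG00000040385, chr19:4192065-4195420, forward strand), which encodes the alpha subunit, had 370, 196, 275 and 203 TPM in old D1 libraries, against 1034, 830, 698 and 1116 TPM in young D1 libraries. The groups lay well apart, and the log2 change of -1.92 (SE 0.23, edgeR adjusted p = 9.24e-05), a level 3.79-fold lower, was the largest among the 10 genes in this fit. With the GC and length trend removed it was -1.11, and that of Cdk5 was larger, at -1.20. In D2 neurons Ppp1ca had 693, 918, 978 and 779 TPM in old mice, against 1395, 1122, 1481 and 999 TPM in young mice. All old D2 libraries were again below the young D2 libraries, but the log2 change of -0.66 (SE 0.23, edgeR adjusted p = 0.629) did not pass. The change with age was lower in D1 than in D2 by -1.27 (SE 0.32, edgeR adjusted p = 0.0496), a call that was lost in 12 of the 16 fits that left out 1 library, with an edgeR adjusted p of up to 0.12. The 4 that kept it were those without old D1 replicates 1 and 3, young D1 replicate 3 and old D2 replicate 1. Of the 50-base windows of Ppp1ca, 19.7% also occur in AC109138.6 or Rad9a, against 4.47% of those of Ppp1r1b in another gene, 1.41% of those of Rasd2 and none for Ppp1r1a, Arpp21, Arpp19, Ppp1cb, Ptpn5 and Cdk5.

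Ppp1cb (ENSMUSG00000014956, chr5:32458843-32517433, forward strand), the beta subunit gene, had 545, 448, 507 and 538 TPM in old D1 libraries, against 324, 401, 343 and 321 TPM in young D1 libraries. All 4 old D1 libraries were above young D1, as were those of 6.17% of all tested genes, and the log2 change was 0.62 (SE 0.15, edgeR adjusted p = 0.012). This call was lost without young D1 replicate 1 (edgeR adjusted p = 0.0641) and in a fit of the compared groups alone (edgeR adjusted p = 0.116). In D2 neurons its level averaged 347 ± 34.1 TPM in old mice and 348 ± 13.8 TPM in young mice (SD, n = 4 each), the smallest age difference of the 10 genes. Ppp1cc (ENSMUSG00000004455, chr5:122158278-122175273, forward strand), the gamma subunit gene, had 331 to 766 TPM in old D1, against 220 to 359 TPM in young D1, ranges that overlapped. Its log2 change was 0.20 (SE 0.20, edgeR adjusted p = 0.579). Of its 50-base windows, 58.8% also occur in 5 other genes, among them the near-identical copy Ppp1ccb, so its counts are uncertain.

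Together the levels gave another mix of PP1 catalytic subunit mRNAs in old D1. The shares and ratios below still carry the trend with GC content and length. With it removed, the log2 changes in old D1 against young D1 were -1.11 for Ppp1ca, -0.25 for Ppp1cb and 0.033 for Ppp1cc. Before removal they were -1.92, 0.62 and 0.20. Ppp1ca made up 20.1 ± 4.21% of the summed TPM of the 3 genes in old D1, against 58.5 ± 7.86% in young D1, and 56.3 ± 5.84% in old D2, against 64.0 ± 5.13% in young D2 (SD, n = 4 each). Ppp1cb made up 40.2 ± 5.73% in old D1, against 22.4 ± 3.49% in young D1, and Ppp1cc 39.7 ± 7.55% in old D1, against 19.0 ± 5.10% in young D1. The old D1 libraries lay outside the range of the other 12 for each of the 3 shares. The Ppp1cc share is sensitive to how fragments were split among its isoforms, since a short isoform described below weighs more per fragment. By plain fragments Ppp1cc took 21.1 ± 3.88% in old D1 and 18.8 ± 4.11% in young D1, while Ppp1ca took 9.84 ± 2.35% in old D1 and 36.4 ± 6.44% in young D1, and Ppp1cb 69.0 ± 5.04% in old D1 and 44.8 ± 3.95% in young D1. The level of Ppp1r1b mRNA was 1.43 ± 0.51 times the summed TPM of the 3 genes in old D1, against 2.42 ± 0.22 times in young D1, and 2.51 ± 0.17 times in old D2, against 2.33 ± 0.36 times in young D2. Against Ppp1ca alone the ratio went the other way, with 7.10 ± 1.99 in old D1, against 4.19 ± 0.76 in young D1, and 4.51 ± 0.63 in old D2, against 3.67 ± 0.72 in young D2 (SD, n = 4 each).

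**Figure D2:**
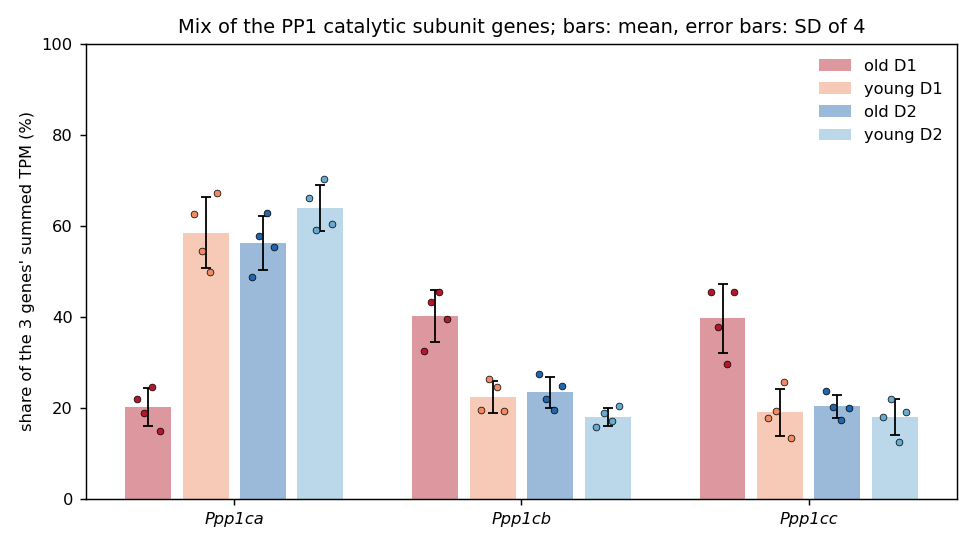
Share of Ppp1ca, Ppp1cb and Ppp1cc in their summed TPM (vertical axis, percent) in old D1, young D1, old D2 and young D2. No trend with GC content or length was removed from the shares. Bars are means of 4 libraries, error bars the SD and points the libraries; the Ppp1ca share averages 20.1% in old D1 and 56.3 to 64.0% in the other groups.

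Ptpn5 (ENSMUSG00000030854, chr7:47077795-47133684, reverse strand), the STEP gene, gave no call by edgeR in any of the comparisons. It had 265 to 500 TPM in old D1, against 408 to 572 TPM in young D1, which overlapped, and 512 to 637 TPM in old D2, against 727 to 806 TPM in young D2, which did not. Its log2 change with age was -0.34 (SE 0.23, edgeR adjusted p = 0.358) in D1 and -0.46 (SE 0.23, edgeR adjusted p = 0.905) in D2. In both ages the D1 libraries lay below the D2 libraries. The log2 difference was -0.48 (SE 0.23, edgeR adjusted p = 0.191) in old mice and -0.59 (SE 0.23, edgeR adjusted p = 0.617) in young mice, where limma's voom with library weights called it (adjusted p = 0.00295).

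Cdk5 (ENSMUSG00000028969, chr5:24418241-24423530, reverse strand) was the least abundant of the 10 genes in every group by mean TPM and fell in D1. It had 14.7, 20.5, 23.4 and 10.96 TPM in old D1 libraries, against 49.8, 72.0, 31.3 and 40.9 TPM in young D1 libraries. The groups did not overlap and the log2 change was -1.58 (SE 0.36, edgeR adjusted p = 0.00804), a level 2.99-fold lower. A fit of the compared groups alone (edgeR adjusted p = 0.112) and limma's voom with library weights (adjusted p = 0.133) did not call it. In D2 neurons it averaged 44.2 ± 4.17 TPM in old mice and 49.9 ± 8.86 TPM in young mice (SD, n = 4 each), with a log2 change of -0.27 (SE 0.35). The difference between the age changes, -1.31 (SE 0.49), had an edgeR adjusted p of 0.172, and DESeq2 called it.

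Rasd2 (ENSMUSG00000034472, chr8:75213944-75224113, forward strand), the Rhes gene, also fell in D1. It had 346, 459, 436 and 307 TPM in old D1 libraries, against 568, 548, 710 and 622 TPM in young D1 libraries. No old D1 library reached a young one, and the log2 change was -0.76 (SE 0.15, edgeR adjusted p = 0.00328). With the GC and length trend removed it was -0.16 (edgeR adjusted p = 0.596), and the call was lost. In D2 neurons it had 608 to 754 TPM in old mice and 752 to 838 TPM in young mice. The log2 change there was -0.32 (SE 0.15, edgeR adjusted p = 0.839), and the age changes of D1 and D2 differed by -0.44 (SE 0.21, edgeR adjusted p = 0.297), which did not pass.

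All 10 genes had a log2 change below 0 in old D2 against young D2, the one of Ppp1cb being -0.001 and above 0 under 4 other settings. Their median was -0.33, beside 0.01 over all tested genes, of which 51.0% were above 0. In old D1 against young D1, 6 of the 10 were below 0, with a median of -0.47 beside -0.06 over all tested genes, of which 47.7% were above 0. The 2 age comparisons share no library.

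The comparison of old D1 with old D2 shares its old D1 libraries with the age comparison in D1. Ppp1ca differed by -1.57 (SE 0.23, edgeR adjusted p = 0.000317), Ppp1r1b by -1.11 (SE 0.16, edgeR adjusted p = 0.000248), Cdk5 by -1.24 (SE 0.35, edgeR adjusted p = 0.0326), Rasd2 by -0.72 (SE 0.15, edgeR adjusted p = 0.00514) and Ppp1cb by 0.61 (SE 0.15, edgeR adjusted p = 0.0144). The TPM values of 7 of the 10 genes did not overlap between old D1 and old D2, 2 above and 5 below, where 14.8% of all tested genes did not overlap, 4.66% above and 10.2% below. With the GC and length trend removed, the calls of Ppp1r1b (-0.46, edgeR adjusted p = 0.0647), Rasd2 (-0.14, edgeR adjusted p = 0.668), Cdk5 (-0.94, edgeR adjusted p = 0.108) and Ppp1cb (-0.028, edgeR adjusted p = 0.939) were lost, and that of Ppp1ca held. In a fit of the compared groups alone, Cdk5 (edgeR adjusted p = 0.171) and Ppp1cb (edgeR adjusted p = 0.08) lost the call, and Cdk5 also lost it without a count filter (edgeR adjusted p = 0.0529) and with limma's voom (adjusted p = 0.256). In fits that left out 1 library, the Cdk5 call was lost, with an edgeR adjusted p of up to 0.0774, in the 6 fits without old D1 replicates 1 and 4 and without each of the 4 old D2 libraries. The Ppp1cb call was lost without old D2 replicate 2 and without old D2 replicate 3, with an edgeR adjusted p of up to 0.0611. Arpp21, at 0.47 (SE 0.18, edgeR adjusted p = 0.105), was called only without old D1 replicate 1 (edgeR adjusted p = 0.0218). In young mice, 8 of the 10 log2 differences between D1 and D2 were below 0, while 51.0% of all tested genes were above 0. The median of the 10 was -0.18 there, beside 0.02 over all tested genes. In young mice 3 genes, Arpp19, Ptpn5 and Rasd2, lay lower in every D1 library than in every D2 library, as was the case for 3.98% of all tested genes.

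**Figure D3:**
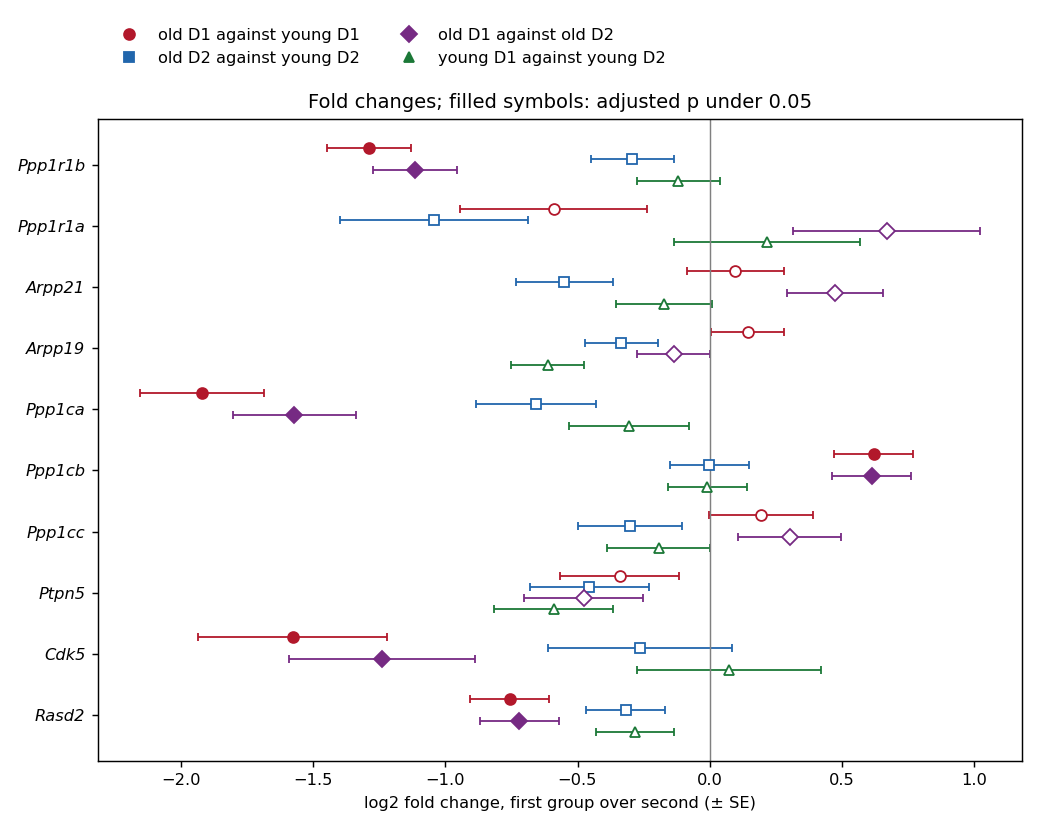
Log2 fold change ± SE (horizontal axis) of each gene in 4 comparisons, the first-named group over the second; filled symbols have an edgeR adjusted p under 0.05. Ppp1r1b, Ppp1ca, Cdk5 and Rasd2 are filled to the left and Ppp1cb to the right in both comparisons that hold old D1, and no symbol is filled in the other 2.

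By mean TPM the order of the 10 genes was the same in young D1, old D2 and young D2: Ppp1r1b, Arpp21, Arpp19, Ppp1ca, Rasd2, Ptpn5, Ppp1cb, Ppp1cc, Ppp1r1a and Cdk5. In these 3 groups Ppp1r1b, Arpp21, Arpp19 and the next gene lay apart from each other, with no overlap between neighbouring ranges. Rasd2 and Ptpn5 overlapped in all 3, as did Ppp1cb and Ppp1cc. In old D1 Arpp21 came before Ppp1r1b, and Ppp1ca dropped to the eighth place. There only 3 neighbouring pairs did not overlap, Arpp19 with Ppp1cc, Ppp1ca with Ppp1r1a, and Ppp1r1a with Cdk5.

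Base composition went with the age difference in D1 libraries. Over 13548 genes with a known GC content, the log2 change in old D1 against young D1 had a Spearman rho of -0.34 with the GC content of the main isoform, against -0.005 in old D2 against young D2. These are correlations across genes, which are not independent replicates. Of the genes with GC content under 45%, 11.1% were called higher and 0.837% lower in old D1, and at 60% and over, 0.489% were called higher and 17.8% lower. The 10 genes fall on both sides. Arpp19 at 38.6% GC, Ppp1cb at 40.8%, Arpp21 at 43.5% and Ppp1cc at 48.7% all had a log2 change above 0, and Cdk5 at 53.4%, Ppp1r1a at 55.3%, Rasd2 at 55.6%, Ppp1ca at 56.1%, Ppp1r1b at 56.5% and Ptpn5 at 58.4% all had one below 0.

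A fit that took the trend with GC content and length out of every library left 2 of the 10 genes called in old D1 against young D1. Of all 13548 genes tested in that fit, 807 were called. The 2 members were Ppp1ca, at -1.11 (edgeR adjusted p = 0.00395), and Cdk5, at -1.20 (edgeR adjusted p = 0.0438). Ppp1r1b then had -0.43 (edgeR adjusted p = 0.0854), Rasd2 -0.16 (edgeR adjusted p = 0.596) and Ppp1cb -0.25 (edgeR adjusted p = 0.325). Neither difference between the age changes passed, with -0.19 (edgeR adjusted p = 0.763) for Ppp1r1b and -0.52 (edgeR adjusted p = 0.461) for Ppp1ca. In old D1 against old D2 the same fit called 3 of the 10 genes, Ppp1ca (-0.95), Arpp19 (-0.74) and Ppp1r1a (1.22), and 837 of all 13548 genes. Ppp1ca was called in old D1 against young D1 and in old D1 against old D2 under every other setting run. Base composition, fragment length and age cannot be told apart in the old D1 libraries.

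**Figure D4:**
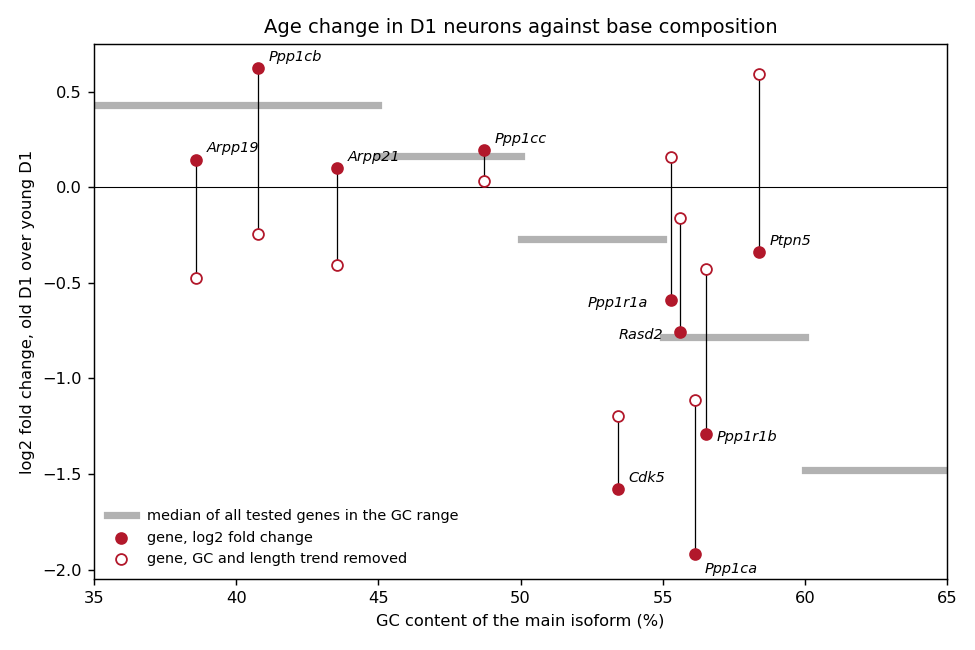
Log2 fold change of old D1 over young D1 (vertical axis) against GC content of the main isoform (horizontal axis, percent) for the 10 genes, before (filled) and after (open) the trend over GC content and length was removed. Grey bars are medians of all tested genes with GC content under 45%, in steps of 5 points up to 60%, and at 60% and over; Ppp1ca and Cdk5 lie below the grey bar of their range and stay below -1 after removal.

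The isoform tables list 78 isoforms of the 10 genes, of which 53 passed the filter on low counts. In old D1 against young D1, 9 were called, all lower, where 4.2% of all 28914 tested isoforms were called, 1.09% higher and 3.11% lower. In old D1 against old D2, 1 was called higher and 8 lower, where 4.23% of all tested isoforms were called, 1.15% higher and 3.07% lower. The other 2 comparisons called none of the 53, with 0.0138% of all tested isoforms called in old D2 against young D2 and 0.104% in young D1 against young D2. The age changes of D1 and D2 differed for none of these isoforms, where 0.996% of all tested isoforms were called. Isoform values are estimates from fragments that the isoforms of a gene share. The median log2 change over all tested isoforms was -0.417 in old D1 against young D1. Isoforms were refitted only without a count filter and with each library left out, so the trend with GC content and length was not removed from them.

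For Ppp1r1b the deposited values put most of the level on Ppp1r1b-202, an isoform that GENCODE M21 lists as having a retained intron. It took 82.9% of the gene's TPM in old D1, 81.1% in young D1, 76.4% in old D2 and 81.7% in young D2, on average over 4 libraries. The coding isoform Ppp1r1b-201 had 57.9 to 167 TPM in old D1, against 202 to 1019 TPM in young D1. Both were called lower in old D1, Ppp1r1b-202 by a log2 change of -1.21 (SE 0.17, edgeR adjusted p = 0.000797) and Ppp1r1b-201 by -2.85 (SE 0.59, edgeR adjusted p = 0.014). A second coding isoform, Ppp1r1b-204, was listed at 99.4 to 195 TPM in old D1, against 0 to 201 TPM in young D1, and was not called.

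Ppp1cc-209, a short isoform of 557 bases marked for nonsense-mediated decay, was the one isoform called higher in old D1 than in old D2 (log2 3.24, SE 0.78, edgeR adjusted p = 0.0287). It had 325, 89.3, 110 and 446 TPM in old D1, against 23.1, 36.3, 12.7 and 38.3 TPM in old D2, and 20.7 to 51.4 TPM in young D1. The full-length coding isoform Ppp1cc-202 averaged 254 ± 80.8 TPM in old D1, against 244 ± 48.4 TPM in young D1 (SD, n = 4 each). For Ptpn5 an isoform that GENCODE M21 does not list, ENSMUST00000126370, had 0 to 2.53 TPM in old D1, against 42.6 to 279 TPM in young D1, and 193 to 366 TPM in old D2, against 136 to 643 TPM in young D2. It was called lower in old D1 than in young D1 (log2 -7.54, SE 1.43, edgeR adjusted p = 0.00849), while the gene as a whole was not called. Arpp19-203 had 251 to 566 TPM in old D1, against 580 to 948 TPM in young D1 (log2 -1.03, SE 0.27, edgeR adjusted p = 0.0379), and the other Arpp19 isoforms were not called.

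Nearly all of the Arpp21 level was on transcripts that start inside the gene. The 16 isoforms that start at or downstream of position 112188474 on the reverse strand held 97.8 ± 1.69% of the gene's TPM in old D1, 97.5 ± 1.53% in young D1, 97.8 ± 0.47% in old D2 and 97.6 ± 0.56% in young D2. The 15 isoforms that start upstream, at 112217261 or beyond, summed to 53.9 ± 44.7, 67.6 ± 31.6, 54.6 ± 9.88 and 77.6 ± 13.3 TPM in the same order of groups (SD, n = 4 each). Grouped by the other end, the 22 isoforms with the proximal 3′ end held 99.0% of the level in old D1, 98.2% in young D1, 98.0% in old D2 and 97.8% in young D2. The 9 isoforms with the distal 3′ end summed to 25.8 ± 19.3 TPM in old D1, 53.7 ± 20.9 in young D1, 50.3 ± 4.24 in old D2 and 72.9 ± 6.29 in young D2 (SD, n = 4 each). The 2 groupings do not match. Arpp21-221 and Arpp21-202, long coding forms with the distal 3′ end, start inside the gene. Arpp21-204 starts upstream and has the proximal 3′ end. The isoform with the highest level, Arpp21-218, took 31.0 to 90.6% of the gene's TPM in old D1 libraries, against 54.5 to 61.1% in young D1. GENCODE M21 lists Arpp21-218 as a processed transcript, not as protein coding. Isoforms listed as coding held on average 2.18% of the gene's TPM in old D1 and 2.65% in young D1. They held 3.13% in old D2 and 2.82% in young D2.

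RefSeq promoter windows, which run from 250 bases before to 50 bases after a start, were at hand for 6 of the 10 genes on GRCm38.p6. The windows shown are the internal and the upstream start of Arpp21, whose transcripts differ so much in level, and those of Ppp1cb and Rasd2, which were called in opposite directions in old D1. Each is printed 5′ to 3′ on the strand of the gene, and capitals mark the letters of a CCAAT box (CCAAT), a GC box (GGGCGG) or the core of a cyclic AMP response element (TGACG), on either strand.
Arpp21 internal start, chr9:112187877-112188176, reverse strand: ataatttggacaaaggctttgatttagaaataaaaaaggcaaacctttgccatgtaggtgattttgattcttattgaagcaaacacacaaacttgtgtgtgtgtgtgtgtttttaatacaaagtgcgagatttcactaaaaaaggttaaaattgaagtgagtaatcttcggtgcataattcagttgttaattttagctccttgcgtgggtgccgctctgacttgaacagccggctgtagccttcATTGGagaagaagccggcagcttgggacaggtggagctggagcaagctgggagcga
Arpp21 upstream start, chr9:112233673-112233972, reverse strand: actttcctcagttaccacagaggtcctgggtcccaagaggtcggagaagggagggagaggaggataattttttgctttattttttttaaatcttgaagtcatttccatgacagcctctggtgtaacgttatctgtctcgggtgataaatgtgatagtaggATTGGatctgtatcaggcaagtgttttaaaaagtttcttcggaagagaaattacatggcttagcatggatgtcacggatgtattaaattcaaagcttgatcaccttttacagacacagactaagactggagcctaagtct
Ppp1cb, chr5:32458720-32459019, forward strand: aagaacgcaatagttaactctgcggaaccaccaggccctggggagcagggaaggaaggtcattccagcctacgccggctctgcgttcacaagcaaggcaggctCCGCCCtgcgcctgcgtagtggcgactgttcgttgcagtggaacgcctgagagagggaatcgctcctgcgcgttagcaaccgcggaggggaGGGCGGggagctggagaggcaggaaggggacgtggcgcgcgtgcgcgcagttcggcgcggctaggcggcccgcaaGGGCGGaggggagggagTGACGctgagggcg
Rasd2, chr8:75213694-75213993, forward strand: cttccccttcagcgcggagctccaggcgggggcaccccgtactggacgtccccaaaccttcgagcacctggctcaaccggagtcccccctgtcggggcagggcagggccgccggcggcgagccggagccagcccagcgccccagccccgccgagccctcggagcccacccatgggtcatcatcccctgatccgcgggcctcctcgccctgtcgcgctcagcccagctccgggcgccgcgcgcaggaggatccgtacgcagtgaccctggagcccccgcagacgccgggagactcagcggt

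Both Arpp21 windows shown hold 1 CCAAT box, and their GC content is 41.7% at the internal and 40.7% at the upstream start, against a median of 52.7% over 32851 windows. The other Arpp21 windows vary. Some hold a CCAAT box as well. The internal one at chr9:112185900-112186199 is 54.7% GC and the upstream one at chr9:112217212-112217511 is 57.7% GC. Each of these holds 1 response element core and no CCAAT box. The Ppp1cb window is 67.3% GC and holds 3 GC boxes, 1 response element core and 31 CpG dinucleotides, against a median of 7 CpG over all windows. The Rasd2 window is 74.7% GC with 33 CpG and holds none of these motifs, nor a TATA box (TATAAA). Among all windows 37.4% hold a CCAAT box, 35.7% a GC box, 20.8% a response element core and 13.6% a TATA box. The full response element TGACGTCA, which contains the core, is in 1.79% of all windows and in no window of the 6 genes.

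The wider pathway was read through 9 lists with 94 tested genes besides the 10. In old D1 against young D1, 11 were called higher and 5 lower, and in old D2 against young D2 none was called, with the shares of all genes given above. The calcineurin subunit gene Ppp3ca, whose phosphatase dephosphorylates DARPP-32 at the protein kinase A site, averaged 2994 ± 688 TPM in old D1, against 1679 ± 394 TPM in young D1 (SD, n = 4 each). Its log2 change was 0.98 (SE 0.18, edgeR adjusted p = 0.00201), it was 1 of 4 calcineurin genes called, and the call held in all 6 other settings and in all 16 fits that left out 1 library. Of 17 protein phosphatase 2A genes, the catalytic subunit gene Ppp2ca was called higher (log2 1.01, SE 0.22, edgeR adjusted p = 0.00681) and the activator gene Ptpa lower (log2 -1.97, SE 0.46, edgeR adjusted p = 0.01). Both of these lost the call when the GC and length trend was removed and in a fit of the compared groups alone, and Ptpa also with voom.

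Of 29 tested PP1 targeting and inhibitor genes, 4 were called higher and 1 lower. Ppp1r7 (log2 0.78, SE 0.17, edgeR adjusted p = 0.0075) kept its call with the trend removed but not in a fit of the compared groups alone, while the inhibitor-2 gene Ppp1r2 (0.62, SE 0.16), the myosin phosphatase targeting gene Ppp1r12a (0.99, SE 0.27) and Ppp1r37 (-1.52, SE 0.47) lost it in both and with voom, and Ppp1r37 also without a count filter. Leaving out 1 library ended the call of Ppp1r2 without young D1 replicates 2 and 4, that of Ppp1r12a without young D1 replicates 1, 3 and 4 and old D1 replicate 2, and that of Ppp1r37 in 13 of 16 fits. The list's median was -0.40, beside -0.06 over all tested genes. In the cyclic AMP arm of 11 genes, Gnal, the stimulatory G protein alpha subunit of striatum, was called higher (log2 0.78, SE 0.17, edgeR adjusted p = 0.00608). It had 1369 ± 325 TPM in old D1 and 765 ± 168 TPM in young D1, and only the fit of the compared groups alone ended the call. The phosphodiesterase gene Pde1b (log2 -0.69, SE 0.15, edgeR adjusted p = 0.00526) and the kinase subunit gene Prkaca (log2 -1.49, SE 0.45, edgeR adjusted p = 0.037) were called lower and lost the call with the trend removed and in a fit of the compared groups alone. The Prkaca call was also lost without each of the 4 young D1 libraries and without old D1 replicates 1 and 3.

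Of 10 genes in the list drawn up around STEP, the AMPA receptor subunit gene Gria2 (log2 0.92, SE 0.21) was among those called higher. The postsynaptic scaffold gene Dlgap3 (-1.87, SE 0.38) was called lower. Both lost the call with the trend removed, in a fit of the compared groups alone and with voom. Of 5 relatives of Rhes and ARPP-21, Diras2 (log2 0.80, SE 0.15, edgeR adjusted p = 0.00222) and R3hdm1 (0.69, SE 0.18, edgeR adjusted p = 0.0185) were called higher. Diras2 kept the call in every other setting, and R3hdm1 lost it with the trend removed, in a fit of the compared groups alone, with voom, and without young D1 replicates 1 and 4. None of the 7 Cdk5 activators and partners, the 9 casein kinase genes, or the pair Ensa and Mastl was called in this comparison. The age changes of D1 and D2 differed for 5 of the 94, where 1.77% of all tested genes were called. These were Diras2 (1.31), R3hdm1 (1.26), Ppp2ca (1.30), Ppp3ca (1.22) and Gnal (1.005), all higher in D1. With the trend removed Diras2 alone passed (1.17). The difference was then 1.05 for Gnal (edgeR adjusted p = 0.0705), close to its value before, 0.86 for Ppp3ca, 0.89 for R3hdm1 and 0.59 for Ppp2ca. Leaving out 1 library ended the call of Gnal in 12 of 16 fits, of Ppp2ca in 11, of Ppp3ca in 4, of R3hdm1 in 2 and of Diras2 in 0.

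Between old D1 and old D2, 10 of the 94 were called higher and 7 lower, where 5.02% of all tested genes were called higher and 4.58% lower. Ensa, a close relative of Arpp19, had 4557 ± 1188 TPM in old D1, against 2384 ± 588 TPM in old D2 (log2 1.04, SE 0.22, edgeR adjusted p = 0.00494). Ppp3cb, Ppp2cb, Ppp2r2c, Mapk14, Ppp2ca, Ppp3ca, Diras2 and R3hdm1 were among the others called higher. Those called lower were Ptpa, Ppp2r5b, Ppp1r37, Pde1b, Gnas, Dlgap3 and Ptk2b, the last a kinase that STEP dephosphorylates. With the trend removed, 8 of these 17 calls held, those of Diras2, Ensa, Mapk14, Ppp2cb, Ppp2r2c, Ppp3ca, Ptk2b and R3hdm1. In a fit of the compared groups alone, Mapk14, Ppp2cb, Ppp2r2c and Ptk2b of these lost the call, while Ppp3ca, Ensa, Diras2 and R3hdm1 kept it in all 6 other settings and in all 16 fits that left out 1 library. Leaving out 1 library ended the call of Ppp2r5b in 13 of 16 fits, of Dlgap3 in 7, of Gnas in 6, of Ppp1r37 in 5, of Ppp2r2c in 4, of Ppp2cb and Ppp2ca in 3 each and of Pde1b in 2. Between young D1 and young D2, 1 of the 94 was called, where 0.409% of all tested genes were. Gnas, the other stimulatory G protein alpha subunit gene, had 48.9 ± 16.04 TPM in young D1 and 212 ± 50.1 TPM in young D2 (log2 -1.97, SE 0.29, edgeR adjusted p = 0.00136), and the call held under every other setting.

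Genes whose pattern over the 16 libraries was most like that of Ppp1r1b were sought by Pearson's r of log2(TPM + 1) among 9700 genes with a mean of at least 5 TPM. They were Gng3 (r = 0.96), Gpx1 (0.96), Ppp6r1 (0.95), Selenow (0.95) and Mtch1 (0.95). Gng3, a G protein gamma subunit gene, had 76.9 ± 41.0 TPM in old D1, 285 ± 57.8 in young D1, 296 ± 88.3 in old D2 and 308 ± 43.9 in young D2 (SD, n = 4 each). The gene nearest to Rasd2 was Ppp1r1b (0.93), followed by Ppp6r1 (0.93) and Tlnrd1 (0.92). Those nearest to Ptpn5 were Clba1 (0.85), Crmp1 (0.85) and Trap1 (0.84), and those nearest to Arpp21 were BC030500 (0.87), Zfp952 (0.84) and Lrrc4 (0.82). The old D1 libraries set most of the spread in Ppp1r1b, so these values describe the order of groups as much as that of single libraries. Ppp1r1b and Arpp21 had an r of -0.001 with each other.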

How the data were processed

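Ribosome-bound mRNA was pulled down by translating ribosome affinity purification and, per the labels' protocols, NuGEN Ovation V2 served to make the libraries. Per the submitters' processing notes, the authors worked with STAR 2.5.1b, RSEM 1.2.20 and the build mm10. Per the file headers, the deposited tables give for each library RSEM expected counts, which are estimated counts of fragments, and TPM, per gene and per isoform, the effective length in bases, and each isoform's percent of its gene. Whether counting used strand is not given in the sources used here, so overlapping genes on opposite strands could share fragments.

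Expected counts were rounded, since 20.0% of those above 0 had a fractional part. Genes were filtered with filterByExpr and fitted over all 16 libraries with 1 mean per group by edgeR 4.0.16's robust quasi-likelihood test with TMM scaling (R 4.3.3). The SE is the size of the log2 fold change divided by the square root of the test's F value. TPM values include Gm42418 in their scaling and the fold changes do not rest on them, so the 2 scales can differ. Isoforms were fitted in the same way. Names and positions came from GENCODE M21 (37607 of 39017 genes matched, 1-based positions), and promoters from RefSeq on GRCm38.p6. Shared sequence was sought as exact 50-base windows among M21 transcripts.

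Alternatives were DESeq2 1.42.0, RLE size factors, no count filter, only the compared groups in the fit, a spline trend over GC content and length (5 degrees of freedom) removed from each library, limma 3.58.1's voom with library weights, and leaving out each library. Leaving Gm42418 out of the TPM scaling was added after seeing the data. The edgeR test was tested on simulated counts, which had no trend with GC content or length and the same spread in every group. That run therefore does not show how the test does with the trend seen in old D1. The genes, lists, markers and tests were chosen with earlier results of these data known, so no list or pattern here is independent support. Named besides the 10 genes were up to 3 called genes per list, direction and comparison, by smallest adjusted p, and the nearest genes by correlation; 1 gene that this rule names is not reported here. The p-values measure the spread between libraries. Fragments without molecular identifiers are not independent molecules.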

Additional observations from a re-analysis of the deposited data

Results flagged for a closer look

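The change with age differed between D1 and D2 neurons for 2 of the 10 genes by the interaction term of edgeR's quasi-likelihood test, where 1.77% of all tested genes were called. For Ppp1r1b the log2 change was lower in D1 than in D2 by -0.996 (SE 0.22, edgeR adjusted p = 0.0283), with all 4 old D1 libraries below all 4 young D1 libraries and the D2 ranges overlapping. For Ppp1ca it was lower by -1.27 (SE 0.32, edgeR adjusted p = 0.0496), with no overlap between old and young libraries in either kind of neuron. With the GC and length trend removed neither passed, at -0.19 (edgeR adjusted p = 0.763) for Ppp1r1b and -0.52 (edgeR adjusted p = 0.461) for Ppp1ca. Leaving out 1 library ended the call of Ppp1r1b in 7 of 16 fits and that of Ppp1ca in 12. With RLE size factors, without a count filter and with voom, Ppp1r1b passed and Ppp1ca did not. Among the 40 sets of 4 TPM values, 1 per gene and group, none had a library outside Dixon's limit, where chance would flag about 1 in 20.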

How the results depend on the processing

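No paired analysis was possible because the labels give the groups no shared replicate numbers. With the GC and length trend removed, the number of the 10 genes called was 2 in old D1 against young D1, 0 for the difference of age changes and 3 in old D1 against old D2. A fit of the compared groups alone gave 3 in old D1 against young D1, 3 in old D1 against old D2 and 1 in young D1 against young D2. The difference gave 1 with RLE size factors, 1 without a count filter and 1 with voom. Voom gave 1 in old D2 against young D2 and 2 in young D1 against young D2, where DESeq2 gave 1. Leaving out 1 library gave 4 to 5, 0 to 0, 0 to 2, 3 to 5 and 0 to 1 called genes for D1 age, D2 age, the difference, old D1 against old D2 and young D1 against young D2. For isoforms it gave 5 to 13 in D1 age, 0 to 0 in D2 age, 6 to 11 in old D1 against old D2 and 0 to 0 in young mice, and no count filter gave 5 in D1 age. Removing the trend turned the direction of Ppp1r1a (0.16), Arpp21 (-0.41), Arpp19 (-0.48), Ppp1cb (-0.25) and Ptpn5 (0.59) in D1 age, of Arpp19 (-0.18), Ppp1cb (-0.16) and Rasd2 (0.19) in the difference, of Arpp21 (-0.034), Ppp1cb (-0.028) and Ptpn5 (0.42) in old D1 against old D2, and of Ppp1cb (0.13) in young mice. Voom turned Arpp21 in D1 age (-0.12), Ppp1cb in D2 age (0.015) and Ppp1r1a in young mice (-0.087). Ppp1cb also turned in D2 age with DESeq2 (0.0099), RLE (0.0099) and no filter (0.0012), and in young mice with DESeq2 (0.0062) and RLE (0.0062). Of these reversals only that of Ppp1cb in the 2 old D1 comparisons touched a called gene. Leaving out 1 library turned Arpp21 in D1 age (-0.16 to 0.26), Ppp1cb in D2 age (-0.037 to 0.056), Ptpn5 in the difference (-0.11 to 0.31), and Ppp1r1a (-0.19 to 0.42), Ppp1cb (-0.096 to 0.069) and Cdk5 (-0.17 to 0.25) in young mice, none of them called. The cause was not tested.

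Over all genes, D1 age had 1508 calls, against 2600 with DESeq2, 305 with the compared groups alone, 807 with the trend removed and 547 with voom. D2 age had 11, against 102 with DESeq2, 39 with the compared groups alone and 167 with voom. The difference had 246, against 1019 with DESeq2 and 42 with the trend removed. Old D1 against old D2 had 1337, against 2402 with DESeq2, 354 with the compared groups alone, 837 with the trend removed and 655 with voom. Young D1 against young D2 had 57, against 187 with DESeq2, 98 with the compared groups alone and 203 with voom. Isoform calls without a count filter were 785 in D1 age, against 1215, and 764 in old D1 against old D2, against 1222. Removing the trend changed the split in the difference to 29 higher and 13 lower, against 129 and 117, and in D2 age to 9 and 5, against 9 and 2. Voom's median log2 change over all genes in D1 age was -0.38, against -0.06. Leaving Gm42418 out of the TPM scaling raised the mean TPM of Ppp1r1b to 1884 in old D1 and 4510 in young D1.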
